A study of Mus musculus with 8 samples.

Results

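The cytosolic ribosomal protein genes were taken from the RNA-seq values of adult mouse hippocampus and prefrontal cortex (PFC) by their names. Names beginning with Rpl or Rps and a number, together with Rplp0, Rplp1, Rplp2 and Rpsa, were kept, and pseudogene names (containing -ps) and the S6 kinases (beginning with Rps6k) were left out. This gave 86 of the 34620 gene names. Of these, 84 had at least 1 normalized count on average in the 8 libraries and were compared with the 19789 names of all kinds that did so, 50 of the large subunit (Rpl) and 34 of the small subunit (Rps). The names left under that level were Rpl10l, with no read in any library, and Rpl39l, with 1 read in PFC replicate 4. One name kept, Rps19bp1, is that of a protein that binds a ribosomal protein and is not one itself. By a final l or l1 in their names 7 of the 86 are paralogs of other members, and Fau and Gnb2l1, which encode further proteins of the ribosome, fall outside the naming rule.

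The ribosome of the cytosol is built from ribosomal RNAs and one copy of nearly every ribosomal protein, so that the cell makes these proteins in about equal numbers. Their genes are expressed in all cells, and their mRNAs begin with a run of pyrimidines, the 5′ terminal oligopyrimidine tract, through which mTORC1 controls their translation. In neurons mRNAs of ribosomal proteins are also carried into axons and dendrites. These genes have left many processed pseudogenes in mammalian genomes, which are intronless copies close in sequence to the mRNA.

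Both regions came from untreated C57Bl6 mice, 7 to 9 weeks old by the labels and 8 to 12 by a paragraph of the methods, and each of the 4 libraries per region held tissue pooled from 2 mice. The 4 pools of the methods appear to have given both regions, but the labels link no hippocampus library to a PFC library. Total RNA was depleted of ribosomal RNA, amplified and read in stretches of 75 bases, and the values are read counts per gene name divided by the size factor of the library, called normalized counts below. The methods call the mice male, but Xist, the RNA that coats the inactive X chromosome, was read in every library (888 to 9963 reads).

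The libraries held 3164964 to 16636500 reads assigned to genes in hippocampus and 4689377 to 10625194 in PFC. Where no read was counted up to 3 reads are possible, worth 1.30 to 6.93 normalized counts depending on the library, and 1 to 8 of the 84 members lay at or under this value in a library. The tissue was checked by lists of markers. The summed normalized counts of 12 hippocampal neuron markers were 17038 to 20772 in hippocampus and 5072 to 10892 in PFC, and those of 12 cortical neuron markers were 5637 to 6297 and 11281 to 14679. Markers of neighbouring tissue differed as well, with 7291 to 12525 in hippocampus and 3333 to 6223 in PFC for 12 choroid plexus markers, and 1361 to 1629 and 2717 to 5292 for 10 striatal projection neuron markers. Oligodendrocyte markers, 10 in number, summed to 118187 to 127730 and 57428 to 83604. Astrocyte markers, 10 in number, summed to 64077 to 72667 and 52283 to 61026. The regions overlapped for 10 microglia markers (3581 to 4396 and 4053 to 4362) and 10 endothelial markers (1200 to 1284 and 1220 to 1350). RNA of markers of several cell types thus differed between the regions, and the part of cell makeup in the ribosomal protein values was not tested. In such bulk tissue fewer cells of a type and less RNA per cell cannot be told apart.

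Windows of coding sequence as long as a read are shown because members differ in how many copies of them the genome holds. For Rpl7a, a protein of the large subunit, a window of 75 coding bases has 14 further identical places in the NCBIM37 genome and 25 with up to 2 differences, the number the aligner allowed. For Rps27, a zinc finger protein of the small subunit, such a window has 3 identical places and 6 with up to 2 differences. The window shown for Rpl4, which lines the tunnel through which the new protein leaves, has no other place. Nor has the window shown for Rps3, at the channel where the mRNA enters. The 4 windows are picked examples and do not stand for whole transcripts. Of all 75-base windows of the Rpl4 transcript 90.8% occur once in the genome, and 48.3% when up to 2 differences are allowed. For Rps3 the shares are 100% and 90.8%, for Rpl7a 10.1% and 0.71%, and for Rps27 0.37% and 0%. All 4 windows are given on the strand of the gene, with no capitals since whole windows were compared.
Rpl7a coding window, chr2:26766564-26766638 of NCBIM37, plus strand: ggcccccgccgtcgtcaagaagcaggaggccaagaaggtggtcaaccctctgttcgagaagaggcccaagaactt
Rps27 coding window, chr3:90017136-90017210 of NCBIM37, minus strand: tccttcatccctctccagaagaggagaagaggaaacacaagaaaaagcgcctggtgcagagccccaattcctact
Rpl4 coding window, chr9:64022703-64022777 of NCBIM37, plus strand: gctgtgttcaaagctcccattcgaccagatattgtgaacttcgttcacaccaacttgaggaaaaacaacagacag
Rps3 coding window, chr7:106631138-106631212 of NCBIM37, minus strand: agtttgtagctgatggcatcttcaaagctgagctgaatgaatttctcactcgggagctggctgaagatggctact

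Few of the ribosomal protein genes differed between the hippocampus and the PFC beyond the spread of the libraries. In each library all members together held between 0.133% and 0.158% of the reads assigned to genes. The shares were 0.147%, 0.144%, 0.133% and 0.155% in hippocampus replicates 1 to 4 and 0.158%, 0.157%, 0.147% and 0.143% in PFC replicates 1 to 4, with 95% Wilson intervals from 0.131 to 0.135 in hippocampus replicate 3 to 0.154 to 0.161 in PFC replicate 1, which cover counting error only. The regions overlapped, with means of 0.145% ± 0.0092 in hippocampus and 0.151% ± 0.0076 in PFC (SD, n = 4), and an exact two-sided permutation test gave p = 0.31. The large subunit names held 1.43 ± 0.15 times as many normalized counts as the small subunit names in hippocampus and 1.44 ± 0.11 times in the PFC (exact two-sided permutation p = 0.89, n = 4). The smallest p that 4 against 4 libraries allow is 0.029.

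Gene by gene, 1 of the 84 members passed an adjusted p of 0.05 with limma on log2(normalized count + 1), where 5.68% of all genes tested did. With edgeR 0 passed (6 before adjustment at p under 0.05), against 5.91% of all genes, and with DESeq2 1, against 7.39%. The member called by limma was Rpl7a, higher in the PFC, and no member was higher in the hippocampus, against 2.55% of all genes (3.13% were higher in the PFC). Before adjustment 5 members had p under 0.05, against 16.9% of all genes. Log2 fold changes are given as hippocampus minus PFC. Their median over the members was -0.05 (all genes tested 0.00), 37 lay above 0 and 47 below (all genes: 49.6% below), and 9 of 84 were beyond 0.5 in either direction. The 4 libraries of one region lay wholly apart from the 4 of the other in 4 members, Rpl7a, Rpl18, Rpl31 and Rps19, each higher in the PFC, against 11.8% of all genes. For 58 of the 84 members the 95% interval of the fold change lay within 2-fold (-1 to 1 on the log2 scale), and the median interval reached 0.60 on either side of its estimate, so smaller differences could not be seen in most members.

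**Figure D1:**
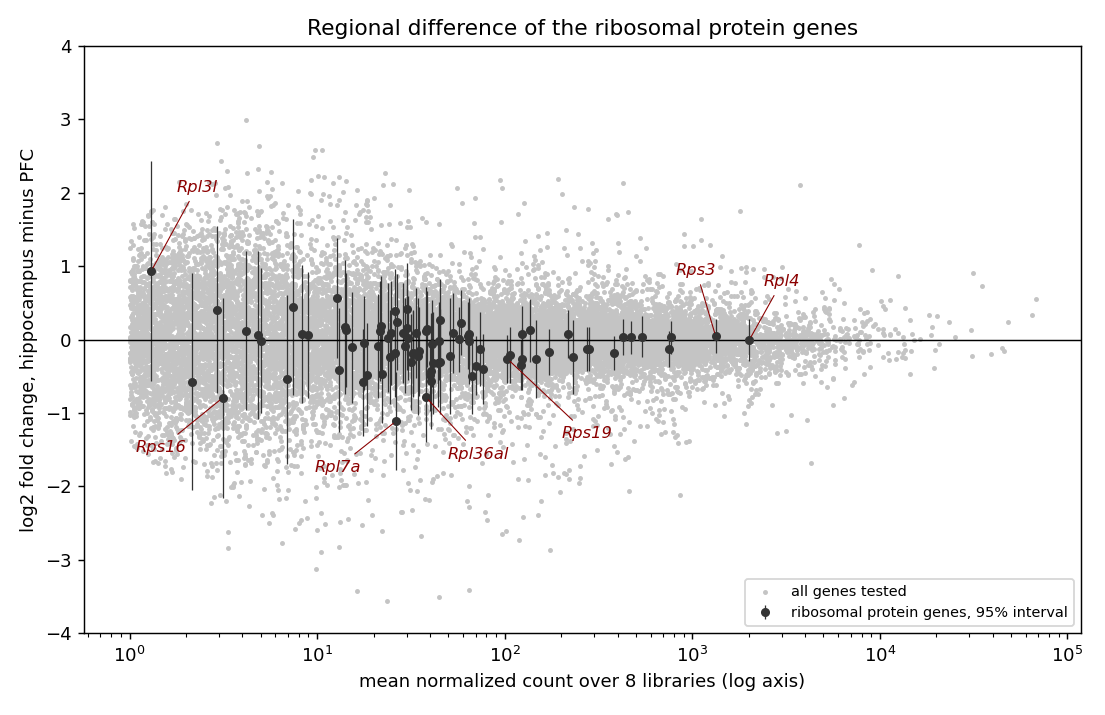
Log2 fold change (hippocampus minus PFC) against the mean normalized count of 8 libraries on a log axis, for the 84 ribosomal protein genes (dark points with 95% intervals from limma) over all 19789 genes tested (grey). The members gather around 0 and their intervals narrow toward Rps3 and Rpl4, while Rpl7a lies lowest at -1.11.

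Rpl7a (chr2:26766284-26768838 of NCBIM37, plus strand) encodes a large subunit protein and carries small nucleolar RNAs in its introns. Its normalized counts were 24.2, 14.4, 19.96 and 9.24 in hippocampus replicates 1 to 4 and 33.8, 36.4, 35.8 and 36.98 in PFC replicates 1 to 4. Every PFC library was above every hippocampus library, and the PFC values lay close together. These values stood for 56, 15, 38 and 4 reads in hippocampus replicates 1 to 4 and 22, 29, 25 and 55 in PFC replicates 1 to 4. Such low numbers carry a large counting error, and the 4 reads of hippocampus replicate 4 lie near the floor of 3 reads. The part of counting error in the closeness of the PFC values was not tested. The means were 16.97 ± 6.53 in hippocampus and 35.8 ± 1.38 in PFC (SD, n = 4; log2 fold change -1.11 with an SE of 0.31, limma adjusted p = 0.048). With edgeR the adjusted p was 0.063, with TMM scaling before limma 0.053 and with DESeq2 0.044. The call was also lost without hippocampus replicate 3 or 4 (adjusted p = 0.077 and 0.11 from limma) and without any one of the PFC libraries (adjusted p = 0.079 to 0.15). Only 10.1% of the 75-base windows of its transcript occur at a single place in the genome, and 66 further places hold an identical window. Records of SNORD36 share 11.96% of its exon bases. The reads counted for it may therefore be of several genes, or may lack those that match several places. The part of these copies in the difference was not tested.

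The other members did not pass the threshold, and 5 of them are described here. Rpl36al, on chromosome 12, encodes a near copy of the X-linked protein Rpl36a. It had 27.3, 17.3, 25.2 and 43.9 normalized counts in hippocampus replicates 1 to 4 and 46.1, 52.7, 37.2 and 54.5 in PFC replicates 1 to 4 (log2 fold change -0.78 with an SE of 0.29, limma adjusted p = 0.15). Hippocampus replicate 4 lay among the PFC libraries, and without it the fold change was -1.01 (adjusted p = 0.049 from limma). Rpl18, of the large subunit, had 29.9, 34.6, 28.4 and 37.0 in hippocampus and 56.9, 45.2, 43.0 and 48.4 in PFC (log2 fold change -0.56 with an SE of 0.23, limma adjusted p = 0.21). Its regions did not overlap, as those of Rpl31, which sits beside the opening of the exit tunnel, did not, with 31.6, 38.5, 30.5 and 32.3 in hippocampus and 49.2, 41.4, 44.4 and 53.1 in PFC (-0.49 with an SE of 0.23, limma adjusted p = 0.28). Of the exon bases of Rpl31 39.5% lie opposite Tbc1d8, and reads were counted without regard to strand. Rpl41, one of the smallest proteins of the ribosome, had 108 ± 18.2 in hippocampus and 137 ± 8.73 in PFC (SD, n = 4; -0.35, SE 0.16, adjusted p = 0.29 from limma). Rps19, a small subunit protein mutated in Diamond-Blackfan anaemia, had 87.8 to 98.1 in hippocampus and 106 to 123 in PFC, apart but close (-0.26 with an SE of 0.15, limma adjusted p = 0.44).

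**Figure D2:**
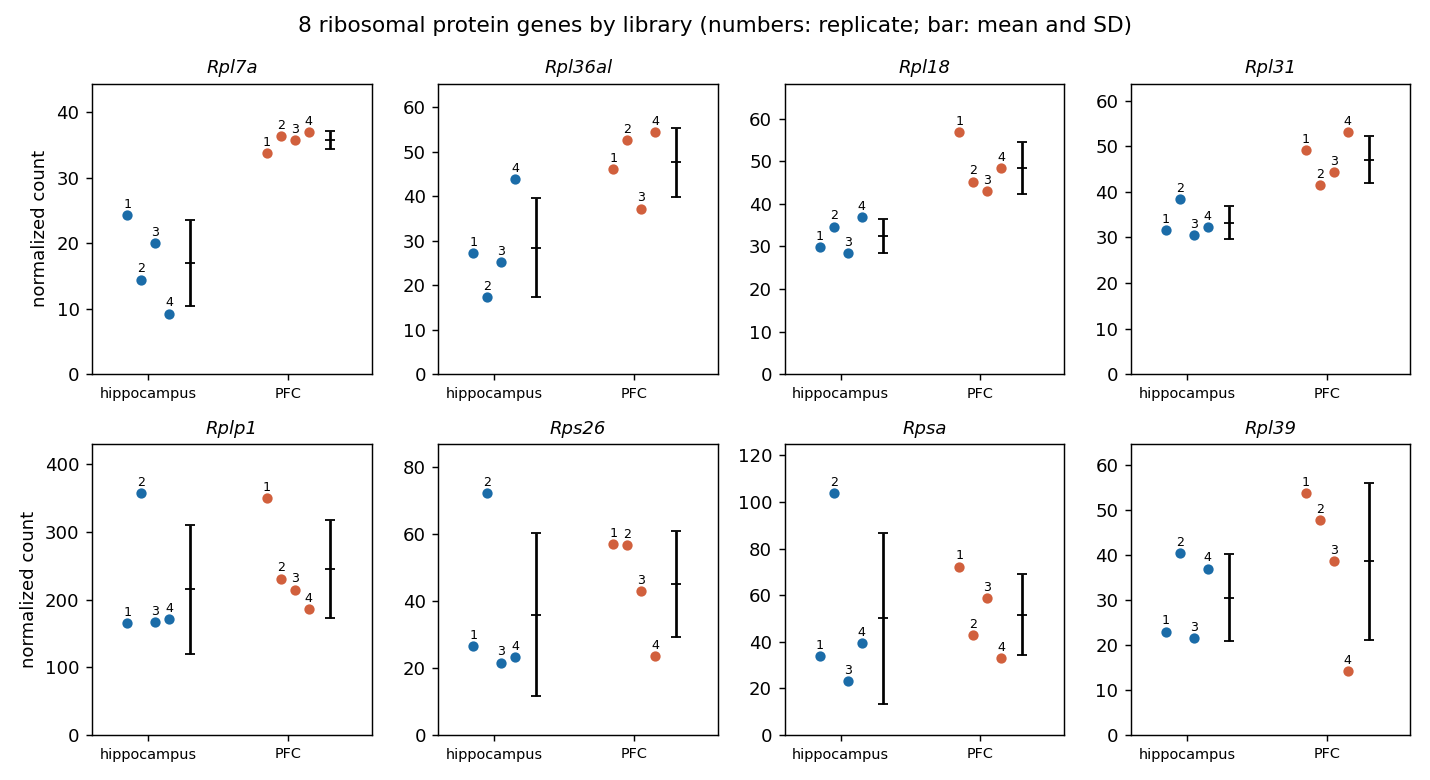
Normalized counts of 8 members in each library (points, numbered by replicate), with the mean and SD of each region beside them (n = 4). In the upper row Rpl7a, Rpl18 and Rpl31 keep the regions apart while hippocampus replicate 4 of Rpl36al reaches the PFC. In the lower row Rplp1, Rps26 and Rpsa are far higher in hippocampus replicate 2 than in the other hippocampus libraries.

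Among members that averaged 20 or more normalized counts, Rpl3, which lies near the peptidyl transferase centre, had the next lowest fold change after Rpl7a, Rpl36al and Rpl18. It had 41.98, 56.8, 41.5 and 83.2 normalized counts in hippocampus replicates 1 to 4 and 93.8, 89.1, 65.9 and 60.5 in PFC, with hippocampus replicate 4 above 2 of the PFC libraries (-0.50 with an SE of 0.25, limma adjusted p = 0.33). The largest fold changes of such members toward the hippocampus were smaller. They were those of Rpl35a (34.9 ± 11.3 and 25.7 ± 6.99, log2 fold change 0.42, SE 0.30) and Rps4y2 (29.6 ± 4.62 and 22.2 ± 3.16, 0.39, SE 0.27), and after them of Rpl10 (0.27, SE 0.26) and Rpl27 (0.24, SE 0.31), with adjusted p from 0.54 to 0.79 from limma. None of the 4 kept the regions apart.

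By role, no group of members held a call other than Rpl7a, and groups were not tested as such. All 3 P stalk members had fold changes below 0 (median -0.24), as had 5 of the 6 of the exit tunnel (median -0.12), with 0 of either past the threshold or under an unadjusted p of 0.05 with limma. Of the 34 small subunit members 0 passed in either direction (0 also before adjustment at p under 0.05 with limma), with a median log2 fold change of -0.11. Of the 50 large subunit members 1 passed, with a median of -0.02. Over all genes 5.68% passed with limma, and 16.9% had p under 0.05 before adjustment. In groups of 3 or 6 members 0 calls cannot be told from these shares. The small subunit members include Rps19bp1. The P stalk recruits the elongation factors to the ribosome. Its base Rplp0 had 38.5 ± 8.99 normalized counts in hippocampus and 49.8 ± 18.04 in PFC, its arm Rplp1 215 ± 95.3 and 246 ± 72.3, and its other arm Rplp2 28.6 ± 8.16 and 30.6 ± 9.22 (SD, n = 4), with adjusted p of 0.67 to 0.94 from limma. The libraries of the regions overlapped in each of them. Rpl5 and Rpl11, which carry the 5S RNA into the large subunit and bind Mdm2 when free, had 35.3 ± 12.8 and 23.9 ± 9.46 in hippocampus and 32.2 ± 6.60 and 19.7 ± 0.61 in PFC. Their means differed by less than the SD of the hippocampus libraries.

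Rps6, the substrate of the S6 kinases whose phosphorylation is used as a mark of active neurons, had 15.6, 31.8, 14.7 and 20.8 normalized counts in hippocampus replicates 1 to 4 and 23.1, 16.3, 28.6 and 18.2 in PFC replicates 1 to 4. The libraries of both regions lay among each other (adjusted p = 0.94 from limma). None of the 4 X-linked members passed the threshold (0 also before adjustment at p under 0.05, and 0 with edgeR and DESeq2). Over all genes 5.68% passed with limma (16.9% before adjustment), 5.91% with edgeR and 7.39% with DESeq2. Rpl10, at the site where the subunits join late in assembly, had 50.7 ± 16.9 and 40.3 ± 4.25 in hippocampus and the PFC, Rpl36a 40.2 ± 12.8 and 36.2 ± 7.93, Rpl39 30.5 ± 9.62 and 38.6 ± 17.4, and Rps4x 26.1 ± 10.2 and 23.7 ± 6.27 (SD, n = 4), with adjusted p of 0.70 to 0.94 from limma. Rps27a, made as a fusion with ubiquitin, had 15.4 ± 4.81 and 21.4 ± 4.16 (-0.48 with an SE of 0.33, limma adjusted p = 0.54). Rps19bp1 had 62.0 ± 9.26 in hippocampus and 79.2 ± 7.66 in PFC (-0.35 with an SE of 0.19, limma adjusted p = 0.38).

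The paralogs ranged from no read to counts above those of their parents. Rpl7l1, a protein of ribosome assembly, had 72.0 ± 25.6 normalized counts in hippocampus and 76.6 ± 15.1 in PFC, and its parent Rpl7 had 43.9 ± 7.65 and 45.3 ± 12.99. Over the 8 libraries Rpl7l1 stood at 28.5 and Rpl7 at 16.6 per kb of exons. Per kb of transcript the order was reversed, with 28.5 for Rpl7l1 and 38.4 for Rpl7. Of the windows of their transcripts, 93.7% of Rpl7l1 and 50.7% of Rpl7 occur once in the genome. Rps27l had 29.2 ± 6.91 and 28.3 ± 10.5, against 4.90 ± 2.95 and 4.80 ± 2.93 for Rps27. Per kb of exons Rps27l stood at 35.3 and Rps27 at 14.1 normalized counts over the 8 libraries. Per kb of transcript Rps27l stood at 57.7 and Rps27 at 14.1, and 87.8% and 0.37% of their windows occur once. The part of shared sequence in the order of these pairs was not tested. Rpl22l1 had 10.8 ± 3.74 and 15.2 ± 6.39 (-0.42 with an SE of 0.40, limma adjusted p = 0.70), far under Rpl22 with 433 ± 50.8 and 420 ± 15.9. Rpl3l, the form of Rpl3 found in heart and skeletal muscle, had 0.87, 1.92, 0.53 and 4.62 in hippocampus replicates 1 to 4 and 2.51 in PFC replicate 2, with no read in the other PFC libraries. Each of its values was worth fewer than 3 reads of that library.

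Reads can be told apart between a paralog and its parent only where they differ. The first 60 coding bases of the pairs Rpl36a and Rpl36al, and Rps27 and Rps27l, are shown with the bases that differ within a pair in capitals. Over their coding sequences the first pair was 87.9% identical, with 39 differences in 321 bases, and the second 76.1%, with 61 in 255. Rpl36al was lower in the hippocampus in most libraries while Rpl36a was not, with counts of 38.0 and 38.2 over the 8 libraries. The difference between their fold changes was not tested.
Rpl36a coding start, chromosome X, plus strand: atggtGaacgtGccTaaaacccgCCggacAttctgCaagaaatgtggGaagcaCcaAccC
Rpl36al coding start, chromosome 12, minus strand: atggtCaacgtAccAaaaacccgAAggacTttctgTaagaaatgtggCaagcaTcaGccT
Rps27 coding start, chromosome 3, minus strand: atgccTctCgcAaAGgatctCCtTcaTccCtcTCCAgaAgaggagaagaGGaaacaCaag
Rps27l coding start, chromosome 9, plus strand: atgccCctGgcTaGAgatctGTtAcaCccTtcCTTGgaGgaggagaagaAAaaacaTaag

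The levels of the members were far from equal, although the ribosome holds their proteins in about equal numbers. The normalized count over the 8 libraries ran from 1.31 for Rpl3l to 2017 for Rpl4, with a median of 38.1 (all genes tested 68.0). It was under 10 in 11 members, between 10 and 100 in 53 and over 100 in 20. Rpl4 and Rps3 alone held 31.2% of the summed counts of all members, the highest 5 held 50.5% and the highest 10 held 67.6%, while the lower 42 of the 84 together held 7.75%. Rpl4 had 2247, 1521, 1916 and 2405 normalized counts in hippocampus replicates 1 to 4 and 1956, 2359, 1742 and 1986 in PFC replicates 1 to 4. Rps3 had 1162 to 1518 in hippocampus and 1167 to 1409 in PFC. Both stood above every other member in each library.

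**Figure D3:**
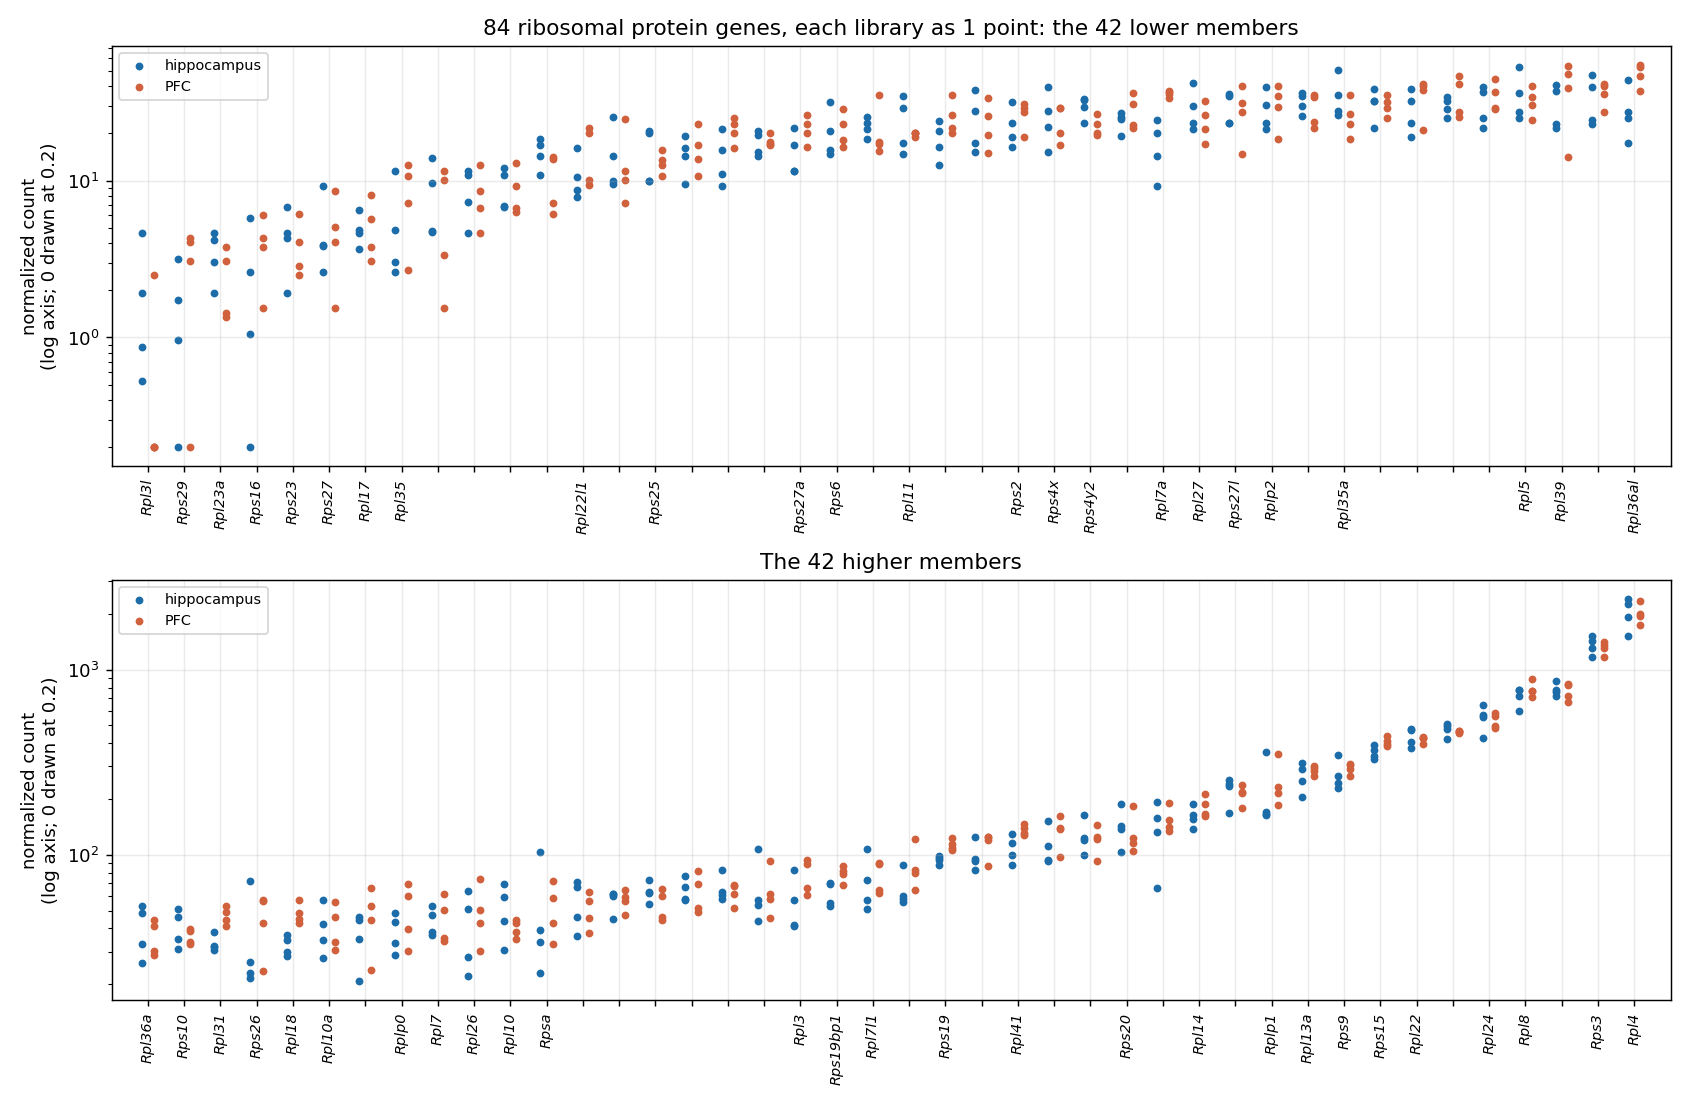
Normalized counts of the 84 members in each of the 8 libraries on log axes, ordered by their mean (members described by name are labelled, upper panel the lower 42, lower panel the higher 42; blue hippocampus, orange PFC). The order spans 1.31 to 2017 normalized counts, and in nearly all members the regions lie among each other.

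The highest 4 per kb of annotated exons were Rpl4 (1418 normalized counts per kb), Rpl8 (870.4), Rps15 (587) and Rplp1 (465). Rpl8, a protein near the peptidyl transferase centre, had 717 ± 83.6 normalized counts in hippocampus and 783 ± 76.0 in PFC, and Rps15, of the small subunit head, 358 ± 27.5 and 407 ± 22.02 (SD, n = 4). In this order Rps15 and Rplp1 do not stand apart from their neighbours with certainty, since Rplp1 varied 165 to 358 between libraries. The lowest 5 per kb were Rpl3l (0.82), Rps29 (3.11), Rpl23a (3.45), Rps16 (3.88) and Rpl35 (5.56). Rps29, a zinc binding protein of the small subunit, had 1.73, 0.96 and 3.15 in hippocampus replicates 1 to 3 and no read in replicate 4, and 3.07, 4.30 and 4.03 in PFC replicates 1, 3 and 4 with no read in replicate 2. Rps16 had 2.36 ± 2.52 and 3.91 ± 1.86. Rpl23a and Rpl35, which sit at the opening of the exit tunnel, had 3.44 ± 1.22 and 5.504 ± 4.14 in hippocampus and 2.40 ± 1.21 and 8.29 ± 4.36 in PFC. Their order is within what 3 reads are worth, up to 6.93 normalized counts.

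Genes of proteins that sit together in the ribosome had very unequal RNA counts. In the exit tunnel and around its opening, Rpl4 stood at 2017 normalized counts over the 8 libraries, Rpl26 at 45.2, Rpl39 at 34.5, Rpl35 at 6.90, Rpl17 at 5.03 and Rpl23a at 2.92. At the entry of the mRNA and the decoding site, Rps3 stood at 1333, Rps9 at 282, Rps2 at 24.5 and Rps23 at 4.16. Within the P stalk Rplp1 stood at 230 and its partner Rplp2 at 29.6. In the same order, 90.8%, 28.5%, 67.8%, 63.3%, 15.8% and 5.76% of the 75-base windows of the tunnel members occur at a single place in the genome. The shares were 100%, 63.6%, 35.5% and 9.51% at the decoding site, and 53.4% and 76.9% in the stalk. These counts are not per kb, and the part of shared sequence in them was not tested. Outside the naming rule Gnb2l1, the scaffold Rack1 of the small subunit, stood at 796 and Fau, a fusion of a ubiquitin-like protein with a small subunit protein, at 6.01. Their adjusted p between the regions was 0.83 and 0.89 from limma.

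The members also differed in how much of their sequence is found at 1 place only. For the main transcript of 83 members in GENCODE M1 (Rpl41 was not matched there), a median of 49.3% of the 75-base windows occur once in the NCBIM37 genome, spliced transcript included, and 24.2% when up to 2 differences are allowed. For mitochondrial ribosomal protein genes the median was 100%. At least 1 further place held an identical window in 79 of the 83 members, with a median of 6 places, and 25 members had at least 10. The share ran from 0.37% for Rps27 to 100% for 4 members, among them Rps3, Rps19bp1 and Rpl3l.

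The members with more sequence of their own tended to have higher levels. The 20 members with at least 75% of windows found once had a median of 182 normalized counts per kb of transcript, the 39 between 25% and 75% had 38.4 and the 24 under 25% had 33.3. Spearman's rho was 0.39 and Pearson's r with the log2 level was 0.41 over 83 members, which share libraries and are not independent replicates. With up to 2 differences allowed, rho was 0.14. Rpl4 (90.8%), Rps3 (100%) and Rpl8 (95.1%) were high in both, and Rps27, Rpl23a (5.76%) and Rps23 (9.51%) low in both. Rpl3l, with 100%, was the lowest of all, and Rps20 (92.7%) and Rps27l (87.8%) stood at 37.1 and 57.7 per kb. The count program's stated settings do not say what was done with reads that align to several places, which its default leaves out, and the part of this step in the levels was not tested.

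**Figure D4:**
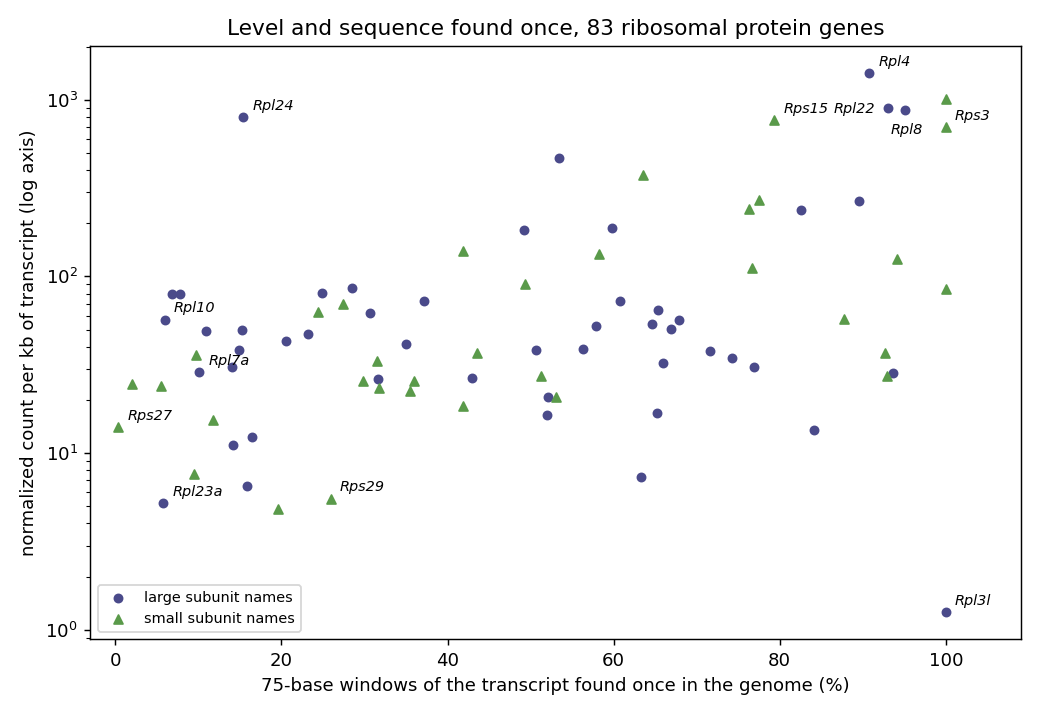
Share of the 75-base windows of each transcript that occur once in the genome (horizontal axis, %) against the normalized count per kb of transcript over 8 libraries (vertical log axis), for 83 ribosomal protein genes (circles large subunit, triangles small subunit). Rpl4, Rpl22 and Rpl8, with 1418, 899.5 and 870.4 per kb, lie at 90.8% or more, Rpl24 stands alone at 15.4% with 796 per kb, and Rpl3l is lowest although all its windows occur once. The transcript of Rpl22 has 474 bases where its annotated exons have 2911, and per kb of exons it stands at 146.

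Rpl24, which stands apart with 539 normalized counts and 15.4% of windows found once, has a record in which 82.9% of the exon bases belong to a coding transcript (chr16:55973917-56009026 of NCBIM37, plus strand) that shares no exon with the ribosomal protein transcript. Its count can therefore be of another gene. Likewise 29.4% of the exon bases of Rpl13a (275 normalized counts) belong to a coding transcript away from its own exons, and 41.3% of them are shared with other records, among them Flt3l. Opposite-strand genes cover 66.2% of the exon bases of Rpl35, 59.7% of Rpl23a, 29.1% of Rps25, 24.3% of Rpl5 and 9.23% of Rpl18.

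Pseudogene names held counts of their own. The values list 163 names of ribosomal protein pseudogenes for 52 of the members, of which 52 names reached a mean of 1 and 31 had no read. In 10 members the highest pseudogene name stood above the gene itself. Rpl14-ps1 had 478 normalized counts where Rpl14 had 172, Rpl10a-ps1 had 334 where Rpl10a had 41.1, Rplp2-ps1 had 124 where Rplp2 had 29.6, and Rps10-ps1 had 106 where Rps10 had 38.6. Reads of a gene and of its copy cannot be told apart where the sequences are alike. These counts may be of either, or may lack such reads if they were left out. Of the 52 pseudogene names tested 0 passed an adjusted p of 0.05 between the regions with limma, where 5.68% of all genes did.

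The spread between libraries had a higher median in the members than in all genes within a range of levels, with nearly the same quartiles. The residual SD of log2(normalized count + 1) within regions had a median of 0.39 over the 84 members and of 0.32 over the 9930 genes with a mean between 7.70 and 280.1, the range from the 10th to the 90th percentile of the members. The quartiles were 0.24 and 0.47 in the members and 0.23 and 0.48 in these genes. Without hippocampus replicate 2 the median of the members was 0.33. The median of the other genes without that library is not given here, so the 0.33 cannot be set against their 0.32. Levels were not matched within that range, members outside it were kept, and no test was made of the difference. Of the members, 54 lay above the second median. Mitochondrial ribosomal protein genes, which stood higher (median count 140.1 against 38.1), had a median of 0.23. The spread ran from 0.083 for Rps19 to 1.01 for Rps29. Among members with a mean of at least 20 it was largest in Rpsa (0.73), Rps26 (0.70), Rpl39 (0.68) and Rpl26 (0.61).

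In Rps26 and Rpsa hippocampus replicate 2 lay far above the other hippocampus libraries, while in Rpl26 and Rpl39 replicates 2 and 4 were both high. Rpsa, the laminin receptor homologue of the small subunit, had 33.8, 104, 23.1 and 39.3 normalized counts in hippocampus replicates 1 to 4 and 72.2, 42.7, 58.7 and 32.95 in PFC replicates 1 to 4. Rps26, which contacts the mRNA upstream of the start codon, had 26.4, 72.2, 21.5 and 23.1 in hippocampus and 56.9, 56.5, 43.0 and 23.5 in PFC. Rpl26 had 28.1, 63.5, 22.1 and 50.8 in hippocampus and 73.8, 42.7, 50.1 and 30.3 in PFC. In all of them hippocampus replicate 2 was the highest of its region and PFC replicate 4 the lowest. Rpl39, in the wall of the exit tunnel, had 22.9, 40.4, 21.5 and 37.0 in hippocampus and 53.8, 47.7, 38.7 and 14.1 in PFC, with the same 2 libraries at the ends. Rplp1 had 358 in hippocampus replicate 2 and 165 to 171 in the others. Without that library its log2 fold change went from -0.24 (SE 0.24, adjusted p = 0.71) to -0.51 (adjusted p = 0.046 from limma), so this call rests on leaving out 1 library, and 11.2% of all genes passed in that fit.

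Over all members no library stood highest throughout. The median deviation of the members from the mean of their region, on the log2 scale, was -0.07, 0.14, -0.20 and 0.14 in hippocampus replicates 1 to 4 and 0.12, 0.04, 0.01 and -0.12 in PFC replicates 1 to 4, while that of all genes tested lay between -0.01 and 0.02. Hippocampus replicate 3 held the lowest value of its region in 35 members (41.7%, against 17.8% of all genes) and PFC replicate 4 in 38 (45.2%, against 23.7%). Hippocampus replicate 4 held the highest value in 35 members (41.7%, against 27.5%) and PFC replicate 1 in 36 (42.9%, against 28.1%). Hippocampus replicate 2 held the highest in 32 (38.1%, against 35.6%) and the lowest in 26 (31.0%, against 35.2%), near the shares over all genes. There Rpl4 had 1521 normalized counts against 1916 to 2405 in the other hippocampus libraries, and the ratio of large to small subunit counts was 1.23, the lowest of the 8.

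The depth of the libraries moved with these deviations. The 3 deepest libraries, hippocampus replicates 1 and 3 and PFC replicate 4, with 10625194 to 16636500 reads, had the 3 medians under 0, and the other 5, with 3164964 to 7544019 reads, lay above it. Among members with a mean of at least 100 hippocampus replicate 1 stood at 0.01, so there only hippocampus replicate 3 (-0.05) and PFC replicate 4 (-0.11) of the 3 lay under 0. The summed counts of 5 red blood cell markers moved as well, with 1171, 2087, 999.97 and 1280 normalized counts in hippocampus replicates 1 to 4 and 1518, 1134, 1315 and 873 in PFC replicates 1 to 4, lowest in hippocampus replicate 3 and PFC replicate 4. Among the PFC libraries, whose deviations were 0.12, 0.04, 0.01 and -0.12, the summed hippocampal neuron markers were 10892, 10050, 6939 and 5072, the oligodendrocyte markers 83604, 81903, 60276 and 57428 and the striatal markers 2717, 3479, 3728 and 5292 in replicates 1 to 4. The part of depth, blood and tissue makeup in the deviations was not tested. The hippocampus held the deeper libraries on the whole, so that depth is not balanced between the regions.

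**Figure D5:**
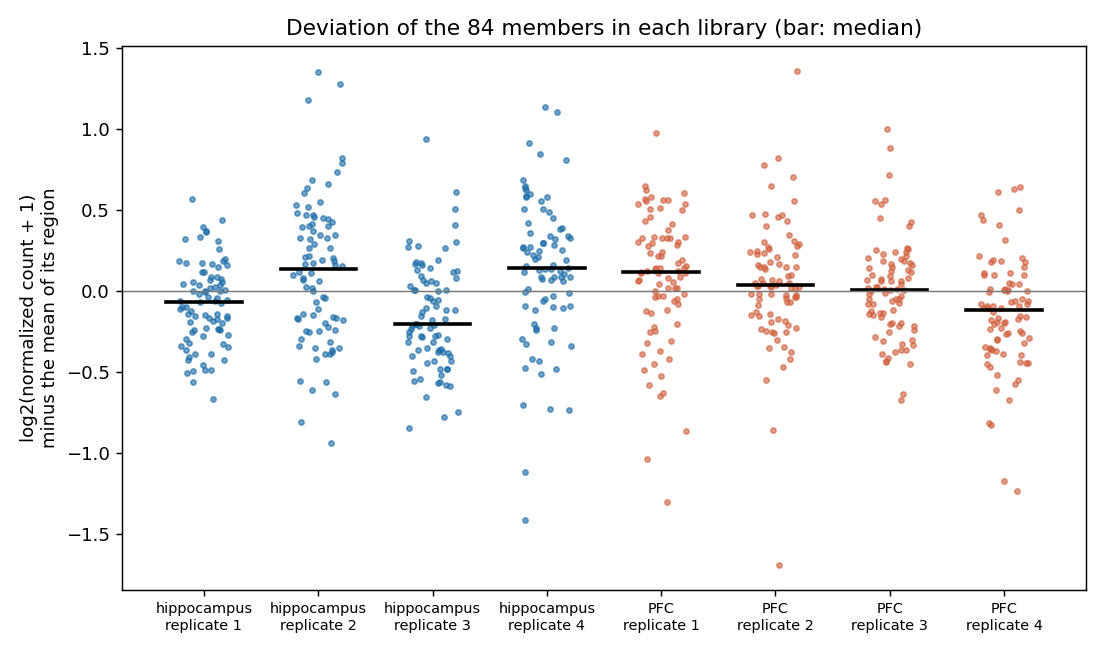
Deviation of each of the 84 members (points) from the mean of its region, on the scale of log2(normalized count + 1), in the 8 libraries (blue hippocampus, orange PFC; bar the median of the members). The medians lie under 0 in hippocampus replicates 1 and 3 and PFC replicate 4, at -0.07, -0.20 and -0.12, and above 0 in the other 5 libraries.

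Of 5 further lists of genes of translation 4 had no call between the regions, where 5.68% of all genes were called by limma, 5.91% by edgeR and 7.39% by DESeq2. Of 11 elongation factor genes 0 passed the threshold with limma (1 before adjustment at p under 0.05, and 0 with edgeR and DESeq2). Of 35 initiation factor genes 0 passed (2 before adjustment, 0 with edgeR and 1 with DESeq2), of 30 ribosome biogenesis genes 0 (4 before adjustment, 0 with edgeR and 1 with DESeq2), and of 75 mitochondrial ribosomal protein genes 0 (2 before adjustment, and 0 with edgeR and DESeq2). Their median log2 fold changes lay between -0.09 and 0.03. Of 14 genes of mTORC1 signalling to translation 1 passed (7.14%), Deptor, an inhibitor of mTOR, with 96.1 ± 6.49 normalized counts in hippocampus and 141 ± 14.4 in PFC (SD, n = 4; -0.55, SE 0.15, adjusted p = 0.048 from limma). This call was lost with TMM scaling and in 7 of the 8 fits that left out a library. Eef2, the factor that moves the ribosome along the mRNA, had 5397 ± 359 and 5786 ± 205, and Eef1a1, which brings the aminoacyl-tRNA, had 584 ± 104 and 745 ± 152. Per kb of exons Eef2 stood at 1805 and Eef1a1 at 266, with 96.7% and 46.9% of their windows found once.

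Across the genome the 83 tested members with a record lay on 19 chromosomes, 14 of them on chromosome 7. Small nucleolar RNA genes lay within 30 of these members on the same strand, 58 in all, and hosts and other members had like levels per kb of exons, with medians of 21.96 and 26.6. Rpl4 held 5 such records and Rps3 held Snord15a and Snord15b.

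A run of at least 8 pyrimidines at the annotated start was more frequent in the members' promoters than in all promoters. RefSeq gave promoters for 62 of the 84 members (74 promoters, GRCm38.p6). A run of at least 8 bases of C or T, reaching within 10 bases of the start, was found on the strand of the gene in 40.5% of them, in 12% of the promoters of mitochondrial ribosomal protein genes and in 13.7% of all 32851 promoters. The motif CCGGAAG, on either strand within the 250 bases before and 50 after the start, was found in 33.8%, 34.7% and 8.86%, and GGGCGG in 60.8%, 52% and 35.7%. The motif AAGATGGC was found in 10.8%, 16% and 2.75%. TATAAA, searched on the strand of the gene 40 to 15 bases before the start, was found in 1.35% of the members' promoters and 1.99% of all. The 15 bases before and after the start are shown for 4 members with such a run and for Rpl36al and Rps3, which like most of the promoters have none of that length. The longest run that reaches within 10 bases of the start is in capitals, 21 bases long in Rpl7a, 10 in Rpl18, Rps6 and Rplp2, 5 in Rpl36al and 2 in Rps3. By gene, 29 of the 62 members had a run of at least 8. The starts are those of RefSeq and were not measured here, and shorter runs were not counted in these shares. They are therefore not the shares of mRNAs that begin with a pyrimidine tract. The libraries measured RNA levels and not translation, on which this tract acts.
Rpl7a start site, chr2:26910792-26910821 of GRCm38.p6, plus strand: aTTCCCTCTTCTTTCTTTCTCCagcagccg
Rpl18 start site, chr7:45718056-45718085 of GRCm38.p6, plus strand: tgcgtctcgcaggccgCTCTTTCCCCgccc
Rps6 start site, chr4:86857353-86857382 of GRCm38.p6, minus strand: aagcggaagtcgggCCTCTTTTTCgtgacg
Rplp2 start site, chr7:141447636-141447665 of GRCm38.p6, plus strand: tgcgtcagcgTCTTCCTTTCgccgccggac
Rpl36al start site, chr12:69184053-69184082 of GRCm38.p6, minus strand: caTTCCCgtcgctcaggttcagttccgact
Rps3 start site, chr7:99483695-99483724 of GRCm38.p6, minus strand: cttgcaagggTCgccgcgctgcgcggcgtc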

How the data were processed

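Reads were trimmed by the authors at a Phred score of 28, aligned to NCBIM37 (TopHat2 2.0.9), counted for each gene name without strand (HTSeq 0.6.0) and divided by DESeq size factors. The release of their annotation is not given in the sources used here. The deposited values are this signal, the normalized counts. Multiplied by the size factor of the library, 100% of values were whole to within 1e-06, and these reads (median library 6643361) entered the count models. Ribosomal protein genes were compared with limma 3.58.1 (trend, two-sided, log2(value + 1), mean of at least 1, Benjamini-Hochberg over 19789 genes), and alternatively with edgeR 4.0.16 (1170 genes called) and DESeq2 1.42.0 (1463 called), where limma called 1124. Other alternatives were TMM, quantile normalization, pseudocounts of 0.5 and 5, other filters, array weights, a replicate block and leaving out each library. The members and gene lists were chosen with earlier results of these data known. Named members were those past the threshold, the 5 highest and 5 lowest per kb (some named items are not reported here), the 4 largest fold changes each way and the 4 widest spreads at a mean of at least 20, fixed groups (stalk, 5S, X-linked, Rps27a, Rps6, paralogs, Rps19bp1) and, of each list, up to 4 genes past the threshold. Rps3, Rpl31, Rpl41, Rps19, Rpl24, Rpl13a, the members of the tunnel and decoding groups, parents of paralogs and pseudogene pairs were added after their values were seen. Windows of 75 bases of the main transcripts (GENCODE M1) were searched in the genome with 25-base seeds. Seeds with over 200 places on a chromosome counted as not unique. The exact permutation tests of the share and the subunit ratio were added. P-values measure the spread between libraries, each of pooled mice, which also holds handling and counting error. Except in the replicate block, the 8 libraries were treated as independent, although the same pools may have given both regions.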

Additional observations from a re-analysis of the deposited data

Results flagged for a closer look

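In 4 of 68 groups of 4 libraries that were checked, 1 library lay far from the other 3, where chance gives about 1 in 20. The 4 are thus near the number that chance alone would give. Members named for a wide spread in these same values, Rps26 among them, were checked too, so this rate need not hold for the set. Rplp1 had 357.9 normalized counts in hippocampus replicate 2, against 164.9 to 170.9 in the others. Rps26 had 72.16 in the same library, against 21.53 to 26.4. Rpl11 had 18.83 in PFC replicate 4, against 19.98 to 20.09, which is a difference smaller than the value of 3 reads. Rpl3l had 2.511 in PFC replicate 2 and no read in the other PFC libraries, a value worth fewer than 3 reads. The causes were not tested.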

How the results depend on the processing

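The median log2 fold change of the members (-0.05) stayed below 0 under every alternative run, between -0.15 with array weights and -0.03, and the share ratio (hippocampus over PFC, 0.958) between 0.935 and 0.984. The count of 1 member called went to 0 with edgeR, TMM scaling, quantile normalization, a pseudocount of 0.5, no filter on low values and the replicate block, to 3 with array weights (Rpl3, Rpl36al and Rpl41; 12.3% of all genes were called there) and to 0 to 2 when a library was left out (2 without hippocampus replicate 2, against 11.2% of all genes). The 1 gene called of mTORC1 signalling went to 0 with TMM scaling, quantile normalization, a pseudocount of 5, no filter and the replicate block, to 2 with array weights and to 0 to 2 without a library. Of the lists with 0 calls, elongation factors gave 2 with array weights and 0 to 1 without a library, initiation factors 1 with DESeq2, 3 with array weights and 0 to 4 without a library, biogenesis genes 1 each with DESeq2, a mean of at least 10 and array weights and 0 to 1 without a library, and mitochondrial ribosomal proteins 1 with array weights. The causes were not tested.

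With the replicate block the adjusted p of Rpl7a was 0.092 (limma) and 0 members were called. Same-numbered libraries did not deviate together (r = -0.13, -0.09, 0.03 and 0.02). Other pairings were not compared, so this cannot tell whether same-numbered libraries came from the same mice. Leaving out Rpl24 and Rpl13a, which moved the relation of level and windows found once from a rho of 0.39 to 0.41, and allowing up to 2 differences in the windows, were chosen after seeing the data. The depth of 3164964 reads in hippocampus replicate 4 left 22 members under 10 reads, which limits what can be said of low members.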
